A study of Rattus norvegicus with 12 samples.

Results

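The genes described here code for the enzymes that break glucose down and pass its carbon and electrons on: those of glycolysis and of glucose synthesis, of the pentose phosphate pathway, of the pyruvate dehydrogenase complex and the tricarboxylic acid (TCA) cycle, and the other enzymes that form NADPH. A gene entered the set when its symbol stood on a list of 50 and the array held a probe set, the group of short probes that reports a transcript, annotated to that symbol alone. This left 47 genes, reported by 71 probe sets, of the 14218 genes that the array measures through a probe set with a single symbol. Dlat and Hk3 were left without such a probe set, and the probe set of Pkm, muscle pyruvate kinase, is shared with a pseudogene, so these 3 genes are not described. The data compare 2 rat insulinoma cell lines on 12 expression arrays, with 6 arrays each. CRI-G1-RR is the original rotenone-resistant clone of the islet cell tumor line CRI-G1, and CRI-G1-RS is a rotenone-susceptible subclone that was frozen as a line of its own after cultures had switched from clumped, rounded cells to flat, epithelioid ones. Rotenone blocks complex I of the respiratory chain. All 12 cultures were untreated and grown in high glucose medium with serum, over 6 passages, and each line is a single clone, so a difference between the lines cannot be told apart from a difference between any 2 clones.

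Glycolysis splits glucose into pyruvate in the cytosol, and in β cells its flux sets how much ATP follows from the glucose outside, which is the trigger for insulin release. The pyruvate dehydrogenase complex carries pyruvate into the TCA cycle, whose dehydrogenases load NADH for complex I. The pentose phosphate pathway leaves glycolysis at glucose 6-phosphate and reduces NADP+ to NADPH, the electron donor with which cells keep glutathione reduced; isocitrate dehydrogenases, malic enzyme and the nicotinamide nucleotide transhydrogenase are the other main sources of NADPH. Whether these routes differ between a line resistant to complex I inhibition and one more susceptible to it is the question behind the comparison.

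Values are signals, that is background-corrected and scaled probe brightness on a linear scale, and they are compared only within a gene, since probe sets differ in brightness for reasons other than RNA amount. Differences are log2 fold changes of CRI-G1-RS over CRI-G1-RR, called log2 changes below, on quantile normalized log2(signal + 16), positive when CRI-G1-RS was higher, and a gene passed the test at an adjusted p below 0.05. The RNA came from bulk cultures, in which fewer expressing cells cannot be told apart from less RNA per cell. One array stood apart in RNA quality: on CRI-G1-RS replicate 2 the log2 ratio of the 3′ to the 5′ control probe set was 0.61 for Gapdh and 3.05 for β-actin, against 0.293 to 0.367 and 1.46 to 1.92 on the other 11 arrays. The lines as wholes were close in this ratio (0.34 in CRI-G1-RR and 0.37 in CRI-G1-RS for Gapdh, exact permutation p = 0.792). The numbers of calls among the enzyme genes, the pairs and the other pathway genes are also given without that array where they change. Other counts, such as those of genes or pairs without overlap, include it. Some islet markers were bright in both lines. The mean signal of Ins1, a rat insulin gene, was 7118 in CRI-G1-RR and 6495 in CRI-G1-RS. Its log2 change of -0.06 did not pass the test (adjusted p = 0.408). The paper, by contrast, reports Ins1 as higher in CRI-G1-RS, both in its own processing of the arrays and by qRT-PCR. The mean signal of Gcg, the glucagon gene, was 7329 and 6589. The other measured markers of islet cells outside the β cells lay near the floor: Sst at 22.4 and 17.2, Ppy at 6.87 and 7.37, and Ghrl at 12.8 and 39.1. Of these and Gcg, Ghrl alone was called, higher in CRI-G1-RS. Of 8 measured β cell markers 5 were higher in CRI-G1-RS and 1 lower. The lower one, Slc2a2, lay near the floor, at mean signals of 9.70 and 1.64. The summed signal of the 8 ran from 13466.5 to 14867 in CRI-G1-RR and from 17291 to 19879 in CRI-G1-RS. The part of these markers in the enzyme differences was not tested. All 14 measured markers of acinar cells, fibroblasts and leukocytes had mean signals no higher than 86.1 in either line and missed the threshold.

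Most of the enzyme genes differed between the lines. Of the 47, 20 were higher in CRI-G1-RS (Mdh1 among them by its brightest probe set, which its other probe set contradicts), 10 were lower and 17 did not pass the test, so that 63.8% were called, where 39.2% of all 14218 genes were. The higher share was 42.6% against a background of 21.0%, and the lower share 21.3% against 18.3%. In 22 genes the 6 signals of one line lay entirely above the 6 of the other (14 with CRI-G1-RS above, 8 below), which held for 27.2% of all genes. The median log2 fold change was 0.15 over the 47 genes and 0.02 over all genes. The routes differed in their counts: the 4 pentose phosphate genes were all lower, no gene of upper glycolysis was, and the TCA cycle had members on both sides. The calls of 21 genes (14 higher, 7 lower) held under each of the 24 alternative settings that tested them. With the arrays scaled as deposited or centred on their medians, Tpi1, Eno1, Mdh2, Mdh1 and Idh2 were no longer called, which left 15 genes higher and 10 lower. A mean signal below 100 in both lines was found for 7 of the 47 genes, which are therefore measured close to the floor.

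**Figure D1:**
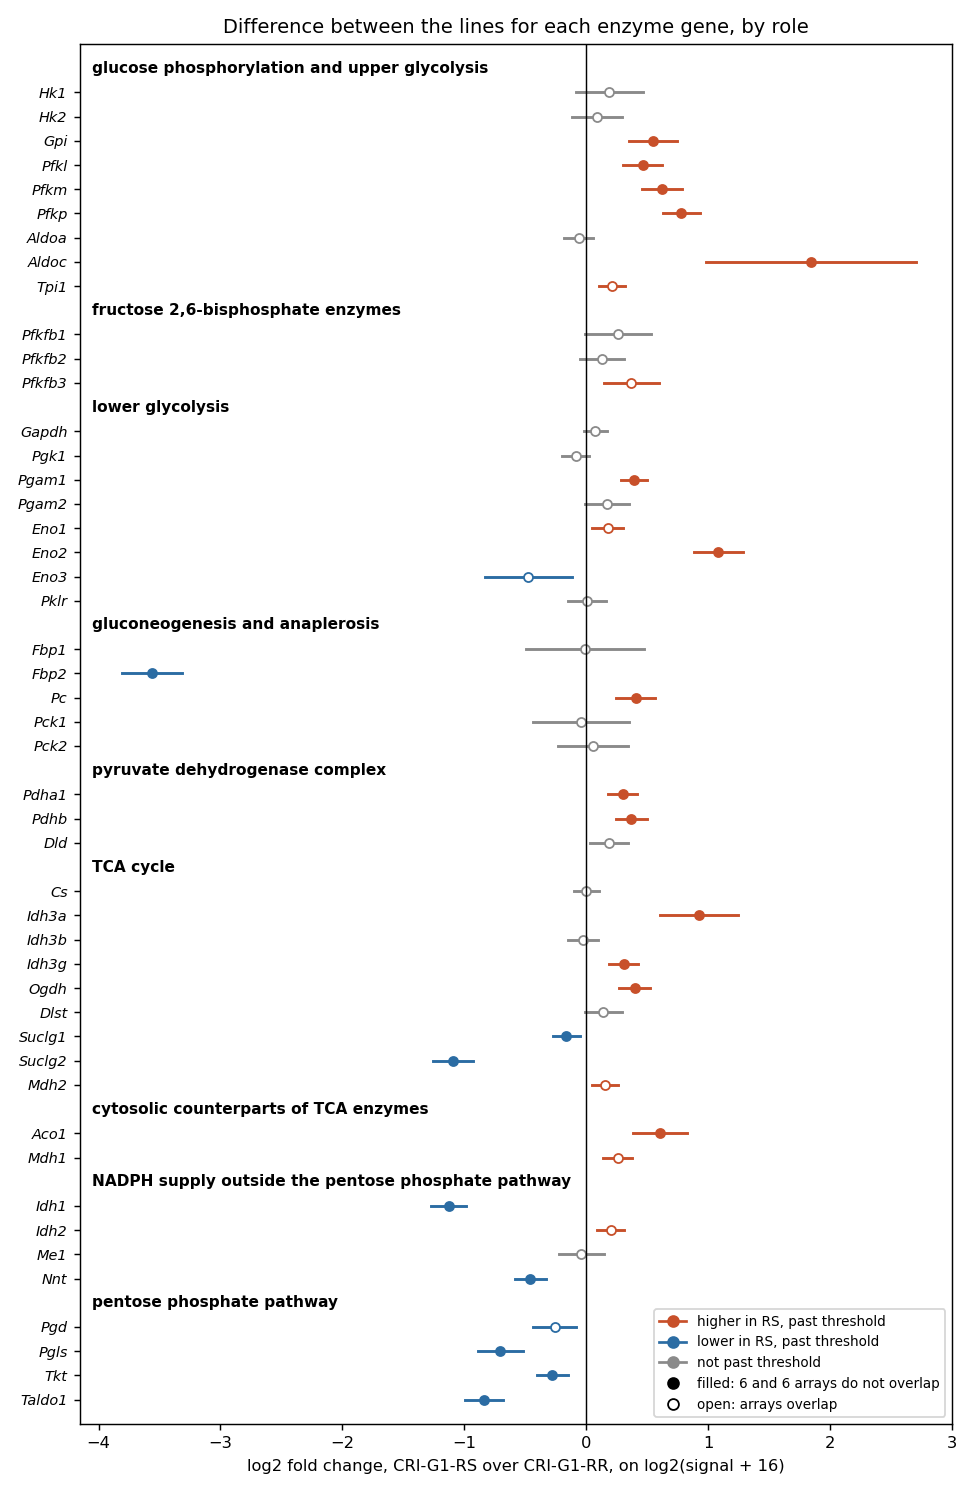
Log2 fold change of each of the 47 enzyme genes (x axis, CRI-G1-RS over CRI-G1-RR on log2(signal + 16)), grouped by role on the y axis, with 95% confidence intervals from limma as bars and 6 arrays per line. Fbp2 stands far to the left at -3.56, Aldoc far to the right at 1.84, and the 4 pentose phosphate genes at the bottom all lie left of 0; Mdh1 is drawn by its brightest probe set, and its other probe set went the opposite way.

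**Figure D2:**
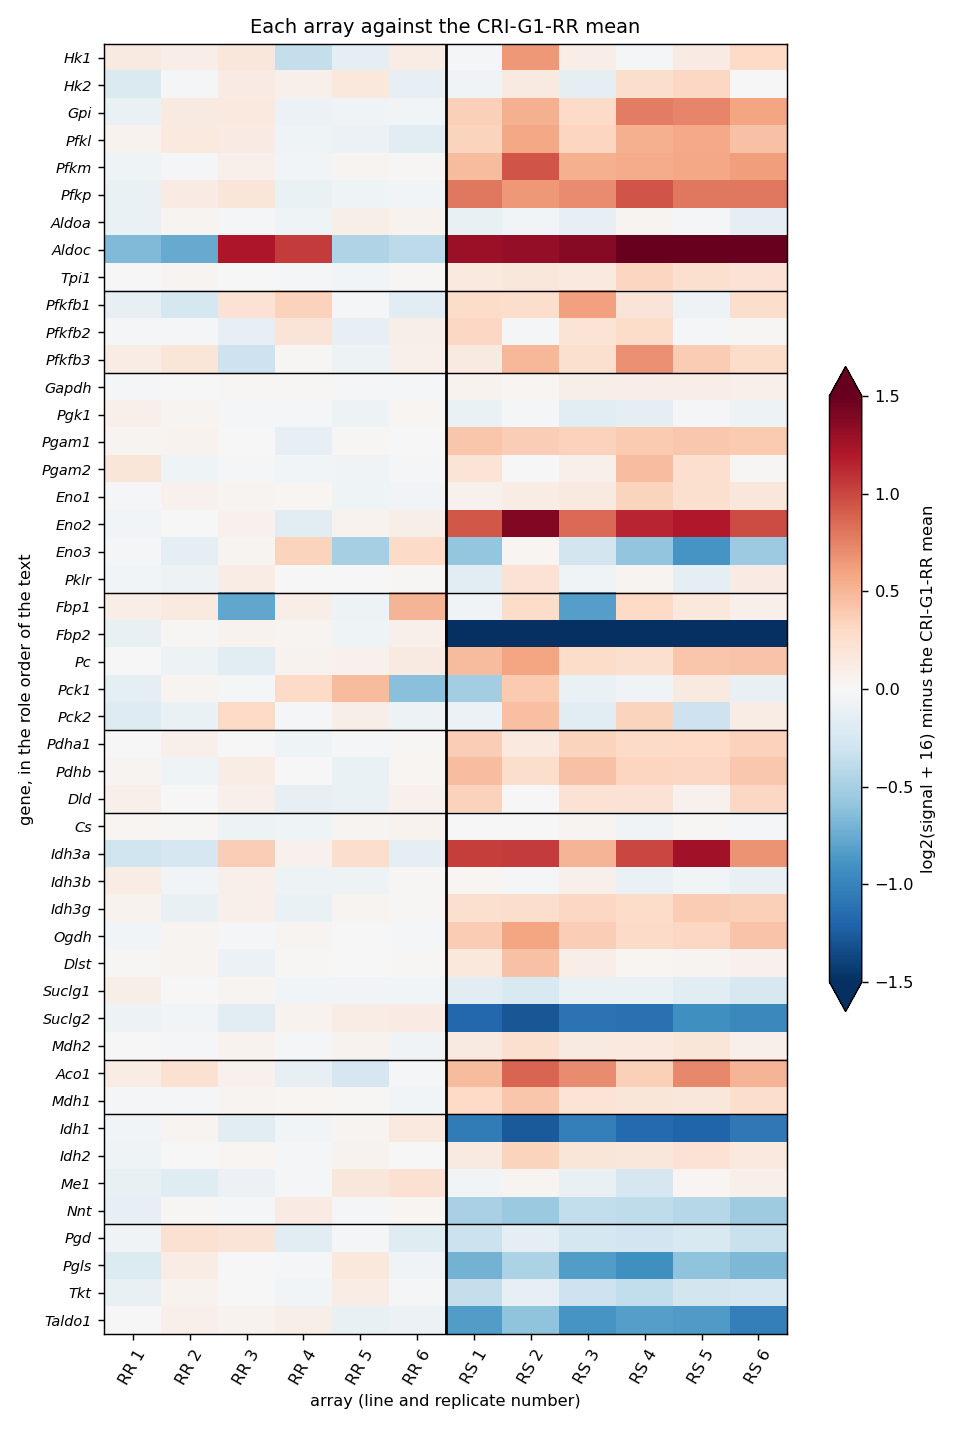
Log2(signal + 16) of each gene on each of the 12 arrays minus the gene's CRI-G1-RR mean (colour, cut at -1.5 and 1.5), with genes in the role order of the text as rows and the arrays, 6 per line, as columns. The CRI-G1-RS columns share one colour for Fbp2, Suclg2, Idh1, Taldo1, Eno2 and Pfkp, whereas Aldoc varies among the CRI-G1-RR arrays themselves.

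In upper glycolysis, from the phosphorylation of glucose to the triose phosphates, 6 of 9 measured genes were higher in CRI-G1-RS and none was lower. The members that moved include all 3 subunit genes of phosphofructokinase, the enzyme that commits sugar to glycolysis. Pfkp, the platelet-type subunit, ran from 755 to 919 on the CRI-G1-RR arrays, with a median of 784, and from 1267 to 1575 on the CRI-G1-RS arrays, with a median of 1409. The ranges were wide apart, and its log2 change was 0.78 ± 0.07 (SE, n = 6 arrays per line, adjusted p = 2.23e-06). Pfkm, the muscle-type subunit, had signals of 483 to 528 in CRI-G1-RR and 717 to 976 in CRI-G1-RS, a log2 change of 0.62 ± 0.08 (adjusted p = 3.33e-05). The highest CRI-G1-RS value came from replicate 2, the array of poorer RNA quality, but the other 5 also exceeded all of CRI-G1-RR. The next probe set of Pfkm gave 0.84, and the dimmest, at a mean signal of 47.4, gave 0.005 and did not pass the test. Pfkl, the liver-type subunit, was higher by 0.46 ± 0.07 (adjusted p = 3.15e-04), again without overlap.

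Gpi, glucose-6-phosphate isomerase, whose substrate is also that of the pentose phosphate pathway, had a mean signal of 1391 ± 99.1 (SD, n = 6) in CRI-G1-RR and 2022 ± 249 in CRI-G1-RS, a log2 change of 0.54 ± 0.09 (adjusted p = 4.41e-04). Tpi1, triosephosphate isomerase, differed by only 0.21 with overlapping arrays (adjusted p = 0.00545). The 2 measured aldolases behaved unlike each other. Aldoa, the main aldolase of most tissues, ran from 5056 to 6304 in CRI-G1-RR and from 4653 to 5796 in CRI-G1-RS, and its log2 change of -0.06 did not pass the test (adjusted p = 0.455). Aldoc, the brain-type aldolase, was near the floor of the array on 4 of the CRI-G1-RR arrays (8.42 to 13.7), at 65.2 and 82.5 on the other 2, and at 84.7 to 277 on the CRI-G1-RS arrays. Its log2 change of 1.84 ± 0.40 (adjusted p = 0.00285) is therefore loosely measured, and it moved from 1.09 with a pseudocount of 64 to 2.53 with a pseudocount of 1. The hexokinases, which start the route, did not pass the test. Hk1 had a median signal of 182 in CRI-G1-RR and 186 in CRI-G1-RS (log2 change 0.19, adjusted p = 0.311), while its 3 control probe sets on the array lay near the floor, with mean signals of 7.07 to 10.4, and did not pass either.

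Fructose 2,6-bisphosphate is the strongest activator of phosphofructokinase, and the bifunctional Pfkfb enzymes make and remove it. Of 3 measured, 1 was higher. Pfkfb3, the isozyme with the most one-sided kinase activity, ran from 232 to 337 in CRI-G1-RR and from 328 to 483 in CRI-G1-RS, so that the lines overlapped slightly (log2 change 0.37 ± 0.11, adjusted p = 0.0160). Pfkfb2 did not pass the test, with a log2 change of 0.13 (adjusted p = 0.285). Pfkfb3 also missed the threshold when CRI-G1-RR was represented by replicates 1 to 3 alone or 4 to 6 alone.

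Lower glycolysis, from glyceraldehyde 3-phosphate to pyruvate, had 3 of 8 measured genes higher in CRI-G1-RS and 1 lower. Eno2, the enolase typical of neurons and endocrine cells, ran from 561 to 686 in CRI-G1-RR, with a median of 647, and from 1173 to 1681 in CRI-G1-RS, with a median of 1343. No arrays overlapped, and the log2 change was 1.08 ± 0.09 (adjusted p = 1.25e-06), a 2.16-fold ratio of the mean signals. Pgam1, phosphoglycerate mutase, was at 4161 to 4544 in CRI-G1-RR and 5030 to 6055 in CRI-G1-RS (log2 change 0.39 ± 0.05, adjusted p = 3.40e-05). These 2 genes carried the change in this stretch. Eno1, the general enolase, was higher by 0.18 ± 0.06 (adjusted p = 0.0344) and Eno3, the muscle enolase, lower by -0.48 ± 0.17 (adjusted p = 0.0431), both with overlapping arrays. Neither call was firm: Eno1 missed the threshold when any one of CRI-G1-RR replicates 1, 5 or 6 or CRI-G1-RS replicates 4, 5 or 6 was left out (adjusted p 0.0548 to 0.0723), and Eno3, whose mean signal was 64.1 in CRI-G1-RR and 42.7 in CRI-G1-RS, when CRI-G1-RR replicates 1, 2, 3, 4 or 6 or CRI-G1-RS replicates 1, 4, 5 or 6 were (adjusted p 0.0535 to 0.0944). Gapdh, the glyceraldehyde-3-phosphate dehydrogenase often used as a reference gene, did not pass the test. Its 3′ control probe set had a mean signal of 6710 in CRI-G1-RR and 6605 in CRI-G1-RS with a log2 change of 0.07 (adjusted p = 0.226), and the middle and 5′ probe sets gave 0.08 and 0.01; the sign of the first turned to -0.025 and -0.046 without quantile normalization. Pgk1, phosphoglycerate kinase, Pklr, the liver and red cell pyruvate kinase, and Pgam2, at the floor in both lines, did not pass either.

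Of 18 higher genes with a promoter window in the RefSeq table (assembly GRCr8, 250 bases before to 50 bases after a listed start), 10 held the letters ACGTG on either strand, the core shared by hypoxia response elements and by part of the E-boxes, CACGTG, which contain it. The same letters stood in 1 of 8 lower genes, 3 of 16 genes that did not pass the test, and 20.9% of the 27457 genes in the table. The 10 are Aldoc, Eno1, Eno2, Gpi, Idh3g, Ogdh, Pdhb, Pfkfb3, Pfkm and Pgam1, so 7 of them are glycolytic. CACGTG itself was found in 3 higher genes, 1 lower gene and 7.08% of all genes. A match describes letters in this window and is not a binding site. The windows of Eno2 and Pfkm are shown as examples of glycolytic genes that hold the core and were measured well above the floor. The 5 letters are in capitals and begin at positions -139 and -132 from the start. The start used for Pfkm lies inside the gene, whose listed span begins at base 131100684. The sequences run 5′ to 3′ on the strand of the gene.
Eno2, chr4:159267171-159267470, minus strand: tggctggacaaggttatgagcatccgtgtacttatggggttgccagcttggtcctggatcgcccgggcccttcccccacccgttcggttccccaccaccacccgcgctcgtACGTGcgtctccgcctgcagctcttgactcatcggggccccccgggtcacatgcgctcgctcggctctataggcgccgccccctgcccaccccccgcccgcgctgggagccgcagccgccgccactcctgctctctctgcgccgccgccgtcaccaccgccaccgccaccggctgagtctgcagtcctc
Pfkm, chr7:131113849-131114148, plus strand: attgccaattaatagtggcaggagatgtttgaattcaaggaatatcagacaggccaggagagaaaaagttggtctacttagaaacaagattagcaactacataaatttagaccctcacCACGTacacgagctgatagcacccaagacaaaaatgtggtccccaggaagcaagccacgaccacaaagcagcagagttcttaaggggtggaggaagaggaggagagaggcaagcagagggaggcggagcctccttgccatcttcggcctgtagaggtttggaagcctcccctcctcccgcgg

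Among the 5 genes of gluconeogenesis and anaplerosis, 1 was higher and 1 was lower, and the lower one showed the widest difference of all 47. Fbp2, the muscle-type fructose-1,6-bisphosphatase that reverses the phosphofructokinase step, had signals of 416, 455, 458, 457, 427 and 478 on CRI-G1-RR replicates 1 to 6 and of 28.9, 19.3, 28.6, 12.8, 28.7 and 24.3 on CRI-G1-RS replicates 1 to 6. All CRI-G1-RR arrays thus stood far above all CRI-G1-RS arrays, whose signals were near the floor. The log2 change was -3.56 ± 0.11 (adjusted p = 3.61e-10) and ran from -2.55 with a pseudocount of 64 to -4.24 with a pseudocount of 1. Fbp1, the liver-type enzyme and its neighbour on chromosome 17, stayed at medians of 28.2 and 28.8. Pc, pyruvate carboxylase, which refills the TCA cycle with oxaloacetate and is abundant in islets, rose from 59.8 ± 3.16 to 85.8 ± 10.4 (SD, n = 6), a log2 change of 0.40 ± 0.07 (adjusted p = 9.00e-04). Both means are below 100, so Pc was measured close to the floor. Pck2, the mitochondrial phosphoenolpyruvate carboxykinase, gave different answers by probe set: the brightest had a log2 change of 0.06 (adjusted p = 0.810), and the other, at 318 to 356 in CRI-G1-RR and 229 to 295 in CRI-G1-RS, had one of -0.31 (adjusted p = 0.00294). Pck1, the cytosolic enzyme, did not pass the test.

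**Figure D3:**
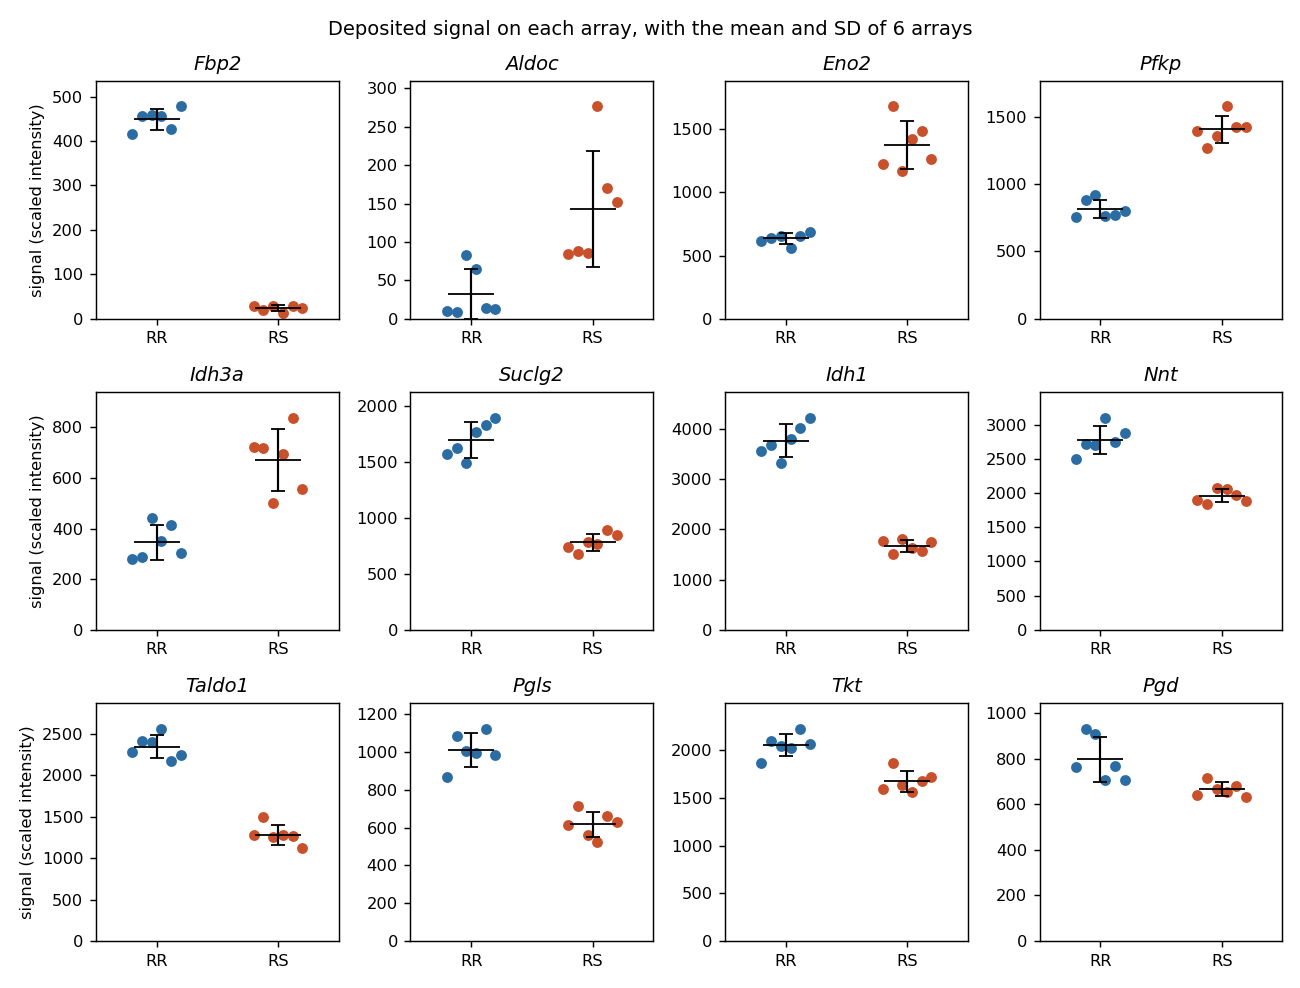
Deposited signal (y axis, linear scale from 0) of 12 enzyme genes on the 6 CRI-G1-RR arrays (blue) and the 6 CRI-G1-RS arrays (orange), with the mean and SD in black. Points of the lines do not overlap in 11 of the panels, and in the panel of Pgd the lowest CRI-G1-RR signal, 706, lies below the highest of CRI-G1-RS, 717.

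The pyruvate dehydrogenase complex had 2 of 3 measured subunits higher in CRI-G1-RS. Pdhb, the β subunit of its first enzyme, ran from 1214 to 1390 in CRI-G1-RR and from 1544 to 1776 in CRI-G1-RS, a log2 change of 0.37 ± 0.06 (adjusted p = 2.58e-04). Pdha1, the α subunit that is phosphorylated to switch the complex off, ran from 1412 to 1523 and from 1612 to 1861, a log2 change of 0.30 ± 0.05 (adjusted p = 7.51e-04). Its second probe set pointed the same way, at 0.48. Dld, the dihydrolipoyl dehydrogenase shared with the oxoglutarate complex, missed the threshold at 0.19 (adjusted p = 0.0670), but passed it at 0.23 without CRI-G1-RS replicate 2 (adjusted p = 0.0213), the one change that leaving out that array made to the 47 calls, which then stood at 21 higher and 10 lower.

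The TCA cycle was split, with 4 of 9 measured genes higher, 2 lower and 3 that did not pass the test. Of the higher genes, 3 belong to the oxidative steps in the middle of the cycle. Idh3a, the catalytic subunit of the NAD-dependent isocitrate dehydrogenase, ran from 278 to 441 in CRI-G1-RR, with a median of 328, and from 499 to 838 in CRI-G1-RS, with a median of 708. Its log2 change was 0.92 ± 0.15 (adjusted p = 3.12e-04). Idh3g, a regulatory subunit of the same enzyme, was higher by 0.31 ± 0.05 (adjusted p = 6.93e-04). Idh3b, the other regulatory subunit, did not pass the test. Ogdh, the first enzyme of the oxoglutarate dehydrogenase complex, ran from 1518 to 1646 and from 1916 to 2355, a log2 change of 0.40 ± 0.06 (adjusted p = 1.50e-04), and Dlst, its second enzyme, did not pass. The lower genes code for succinyl-CoA synthetase, the step that follows.

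Suclg2, its GTP-specific β subunit, had signals of 1487 to 1893 in CRI-G1-RR, with a median of 1689, and of 674 to 889 in CRI-G1-RS, with a median of 772.5. The difference was -1.10 ± 0.08 on the log2 scale (adjusted p = 2.37e-07). Suclg1, the α subunit common to both forms of the enzyme, was at 2414 to 2573 and at 2049 to 2245, a log2 change of -0.16 ± 0.05 (adjusted p = 0.0228) that missed the threshold without CRI-G1-RR replicate 1 or CRI-G1-RS replicate 6 (adjusted p 0.0540 and 0.0544). Sucla2, the ATP-specific β subunit and one of the other pathway genes, went the opposite way: its signal was 794 ± 69.6 in CRI-G1-RR and 1406 ± 74.3 in CRI-G1-RS (SD, n = 6), a log2 change of 0.82 ± 0.07 (adjusted p = 9.37e-07). So of the 2 alternative β subunits, the GTP form was lower and the ATP form higher. The brightest probe set of Cs, citrate synthase, which opens the cycle, had medians of 2379 and 2322. Its log2 change was 0.00 with a confidence interval from -0.11 to 0.10 (adjusted p = 0.991). The other Cs probe sets gave 0.16, 0.10 and, at a mean signal of 19.1, -0.34, and did not pass the test either. Mdh2, the mitochondrial malate dehydrogenase that closes the cycle, was called higher at 0.15 ± 0.05 (adjusted p = 0.0297). That call was lost without CRI-G1-RR replicate 1, 2, 4 or 6 or CRI-G1-RS replicate 5 (adjusted p 0.0506 to 0.0669).

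Of the 2 cytosolic counterparts of cycle enzymes, Aco1 was higher, and Mdh1 was called higher by its brightest probe set alone. Aco1, cytosolic aconitase and an iron-responsive RNA-binding protein, ran from 400.3 to 568 in CRI-G1-RR and from 620.3 to 885 in CRI-G1-RS, a log2 change of 0.61 ± 0.10 (adjusted p = 4.65e-04). Mdh1, cytosolic malate dehydrogenase of the malate-aspartate shuttle, has 2 probe sets that contradict each other. The brighter, of a type that can cross-hybridise with related transcripts, gave 0.26 ± 0.05 (adjusted p = 0.00251). The other ran from 927 to 1203 in CRI-G1-RR and from 484 to 648 in CRI-G1-RS, a log2 change of -0.91 ± 0.09 (adjusted p = 5.54e-06). No direction is given for Mdh1 on that account.

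Of the 4 NADPH-forming enzymes outside the pentose phosphate pathway, 2 were lower and 1 was higher. Idh1, the NADP-dependent isocitrate dehydrogenase of the cytosol, had signals of 3325 to 4227 in CRI-G1-RR, with a median of 3744, and of 1515 to 1808 in CRI-G1-RS, with a median of 1687. The lines were far apart, with a log2 change of -1.13 ± 0.07 (adjusted p = 5.44e-08) and a mean signal 2.25-fold higher in CRI-G1-RR. Nnt, the transhydrogenase that uses the proton gradient to make NADPH in mitochondria, ran from 2492 to 3102 and from 1844 to 2077, a log2 change of -0.46 ± 0.06 (adjusted p = 4.27e-05). Idh2, the mitochondrial NADP-dependent isocitrate dehydrogenase, was higher by 0.20 ± 0.05 with overlapping arrays (adjusted p = 0.00881). Me1, cytosolic malic enzyme, did not pass the test at -0.04 (adjusted p = 0.767), nor did its second probe set at 0.08.

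All 4 measured genes of the pentose phosphate pathway were lower in CRI-G1-RS, and in 3 of them the arrays did not overlap. Taldo1, transaldolase, which links the pathway back to glycolysis, ran from 2173 to 2564 in CRI-G1-RR, with a median of 2340, and from 1123 to 1503 in CRI-G1-RS, with a median of 1273. Its log2 change was -0.84 ± 0.07 (adjusted p = 1.33e-06). Pgls, the lactonase between the 2 NADPH-forming steps, ran from 867 to 1124 and from 523 to 713, a log2 change of -0.70 ± 0.09 (adjusted p = 2.96e-05). Tkt, transketolase, is like Taldo1 an enzyme of the non-oxidative branch. It ran from 1869 to 2224 and from 1561 to 1865, just apart, a log2 change of -0.28 ± 0.06 (adjusted p = 0.00252). Pgd, the 6-phosphogluconate dehydrogenase that forms NADPH, ran from 706 to 931 and from 632 to 717, overlapping slightly through CRI-G1-RS replicate 2 alone. Its log2 change was -0.26 ± 0.08 (adjusted p = 0.0252). This last call was lost without CRI-G1-RR replicate 2 or 3 or CRI-G1-RS replicate 1 or 6 (adjusted p 0.0529 to 0.0534) and the others held under all 24 alternatives. The direction of all 4 was kept throughout.

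Several NADPH-forming enzymes are textbook targets of factors that bind antioxidant response elements, whose core was searched as TGACNNNGC, with N any base, on both strands of the same promoter windows. Of the 8 lower genes with a window, Idh1 and Nnt held it, as did 4 of 18 higher genes (Idh3g, Mdh2, Pdha1 and Pdhb) and 13.1% of all genes in the table. Taldo1, Tkt and Pgd did not hold it in this window, which says nothing of elements elsewhere. The matches begin at positions -83 in Idh1 and -60 in Nnt, counted from the start. The starts used for Idh1, Nnt and Tkt lie inside the genes. On the strand of the gene, their listed spans begin at bases 74057442, 53237857 and 5729381. The windows of Idh1 and Nnt are shown with the matching letters in capitals. Those of Taldo1 and Tkt, pentose phosphate genes of the non-oxidative branch, hold none and are shown beside them.
Idh1, chr9:74049425-74049724, minus strand: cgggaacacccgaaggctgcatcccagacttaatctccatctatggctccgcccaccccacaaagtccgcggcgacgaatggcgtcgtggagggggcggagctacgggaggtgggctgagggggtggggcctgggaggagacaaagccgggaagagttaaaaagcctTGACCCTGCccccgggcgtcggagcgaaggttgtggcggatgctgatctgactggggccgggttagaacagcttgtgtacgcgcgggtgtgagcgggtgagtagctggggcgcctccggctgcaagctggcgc
Nnt, chr2:53237261-53237560, minus strand: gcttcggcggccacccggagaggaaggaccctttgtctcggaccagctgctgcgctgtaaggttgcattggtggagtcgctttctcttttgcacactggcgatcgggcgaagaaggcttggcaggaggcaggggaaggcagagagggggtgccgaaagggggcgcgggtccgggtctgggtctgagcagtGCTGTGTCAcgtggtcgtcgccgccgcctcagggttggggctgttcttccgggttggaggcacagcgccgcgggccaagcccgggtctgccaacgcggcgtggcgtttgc
Taldo1, chr1:205922946-205923245, plus strand: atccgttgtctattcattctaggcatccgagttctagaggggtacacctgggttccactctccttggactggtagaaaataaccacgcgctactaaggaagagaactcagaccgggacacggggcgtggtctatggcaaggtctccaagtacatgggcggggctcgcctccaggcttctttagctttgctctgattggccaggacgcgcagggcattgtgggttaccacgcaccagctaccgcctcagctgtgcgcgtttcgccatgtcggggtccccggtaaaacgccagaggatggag
Tkt, chr16:5729982-5730281, plus strand: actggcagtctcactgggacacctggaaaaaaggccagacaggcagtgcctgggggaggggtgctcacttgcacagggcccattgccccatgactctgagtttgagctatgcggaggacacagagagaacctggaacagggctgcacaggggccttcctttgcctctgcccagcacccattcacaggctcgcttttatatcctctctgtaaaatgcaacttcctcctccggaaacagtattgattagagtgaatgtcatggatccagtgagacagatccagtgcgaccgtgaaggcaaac

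Where a step has several isozymes or subunits, the difference between 2 of them within each array shows whether they changed unequally, without setting one probe set's level against another's. Of 17 such pairs 16 were measured, and 11 of them (68.8%) differed between the lines at an adjusted p below 0.05 (two-sided exact permutation test of 6 arrays against 6, smallest possible p 0.00216, Benjamini-Hochberg over the 16 pairs). The highest unadjusted exact p among the 11 was 0.0216, and 43.0% of all 101068653 pairs that the measured genes can form had one as low. Without CRI-G1-RS replicate 2 the count was 10. In 6 pairs (37.5%) the arrays of the lines did not overlap at all, against 26.6% of all gene pairs, each with p = 0.00216 and an adjusted p of 0.00577 in the exact test. The change of Idh1 minus that of Idh2 was -1.33, so the cytosolic NADP-dependent enzyme fell relative to the mitochondrial one. Eno1 against Eno2 gave -0.91 and Aldoa against Aldoc -1.90. Fbp1 against Fbp2 gave 3.55, but Fbp1 lay near the floor in both lines, where a change of its own could not be seen. Within single enzymes, Suclg1 against Suclg2 differed by 0.93, Idh3a against Idh3b by 0.95 and Idh3a against Idh3g by 0.62 (adjusted p = 0.0130 for the last, exact test). Among the phosphofructokinase subunits, Pfkp gained on Pfkl by 0.32 (-0.32 for Pfkl minus Pfkp, exact adjusted p = 0.00989). Pfkm against Pfkp, at -0.16, did not pass the test (exact adjusted p = 0.176), although without CRI-G1-RS replicate 2 it was -0.25 (exact adjusted p = 0.00866). Pfkl against Pfkm, also at -0.16, missed the threshold (exact adjusted p = 0.0837) and passed it without CRI-G1-RR replicate 6 or CRI-G1-RS replicate 5 (exact adjusted p 0.0378 and 0.0462). Pdha1 and Pdhb did not pass, at -0.07 with overlapping arrays. Eno1 against Eno3 (0.65, exact adjusted p = 0.0192) and Pgam1 against Pgam2 (0.22, exact adjusted p = 0.0312) rest on genes near the floor, and Mdh1 against Mdh2 (0.11, exact adjusted p = 0.0315) on the brighter Mdh1 probe set. The Pgam pair was lost without CRI-G1-RR replicate 1 or 4 or CRI-G1-RS replicate 1, 2, 3 or 6 (exact adjusted p 0.0554 to 0.0750) and the Mdh pair without CRI-G1-RR replicate 1, 2, 3 or 5 or CRI-G1-RS replicate 1, 2, 3 or 6 (exact adjusted p 0.0504 to 0.0693). Hk1 against Hk2 and Pck1 against Pck2 did not pass.

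**Figure D4:**
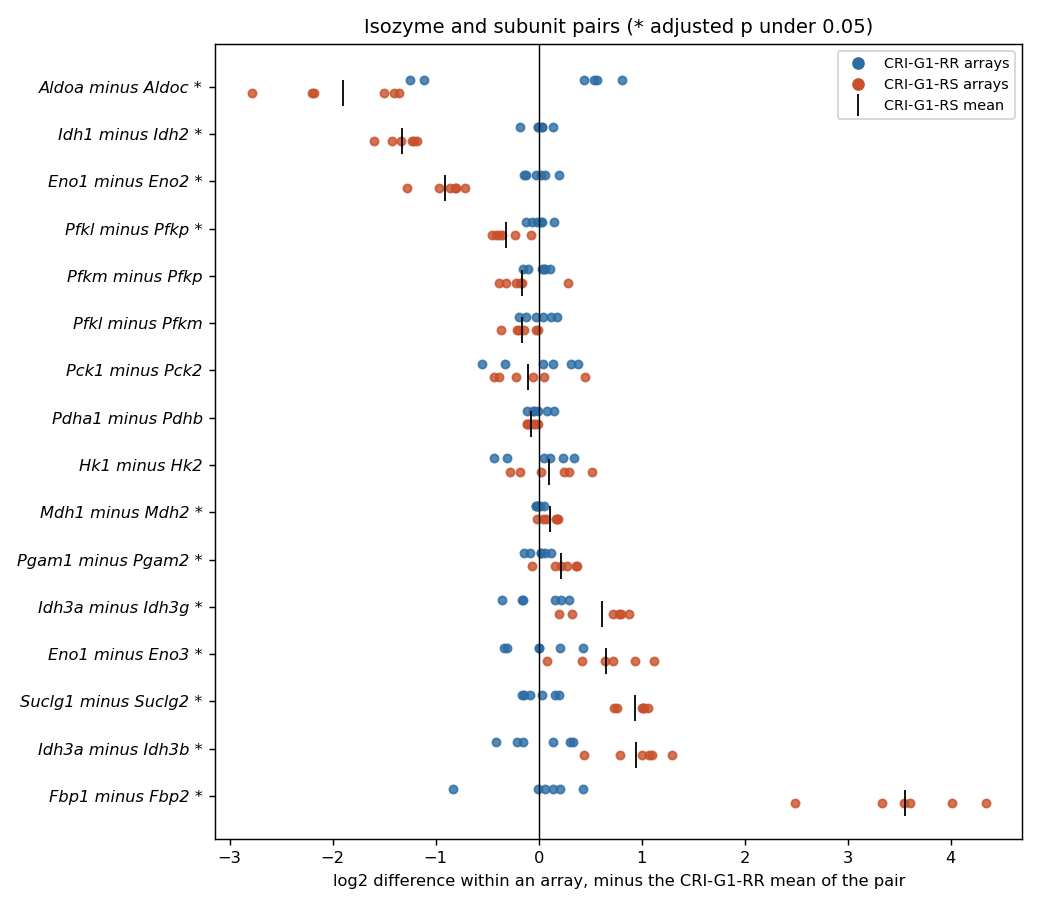
Log2 difference between 2 genes within each array, minus the CRI-G1-RR mean of that difference (x axis), for 16 isozyme and subunit pairs (y axis, first gene minus second), with CRI-G1-RR arrays in blue, CRI-G1-RS arrays in orange and the CRI-G1-RS mean as a black tick. The orange points leave the blue ones entirely for Aldoa and Aldoc, Idh1 and Idh2, Eno1 and Eno2, Suclg1 and Suclg2, Idh3a and Idh3b, and Fbp1 and Fbp2; Pgam1 and Pgam2 and Mdh1 and Mdh2, both starred, turned in direction with a pseudocount of 1 and with the other Mdh1 probe set, respectively.

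Of 44 further genes of these routes that were not on the list of 50, 30 had a probe set of their own, and 10 were higher in CRI-G1-RS and 3 lower, 43.3% against the same background of 39.2%. Among the higher genes were Got1, the cytosolic aspartate aminotransferase of the malate-aspartate shuttle, with a log2 change of 1.19 ± 0.08 (adjusted p = 2.76e-07), and Gckr, the regulatory protein of glucokinase, at 1.26 ± 0.25 (adjusted p = 0.00159) but with mean signals of only 32.0 and 90.8. Sucla2 was described above. The lower genes were Rpe, ribulose-phosphate epimerase, a pentose phosphate enzyme, at -0.66 ± 0.08 (adjusted p = 4.38e-05), Glud1, glutamate dehydrogenase, at -0.23 ± 0.06 (adjusted p = 0.00799), and Pfkfb4, at -0.24 ± 0.08 (adjusted p = 0.0392). The Pfkfb4 call was lost, leaving 2 lower genes in the case of CRI-G1-RS replicate 2, without CRI-G1-RR replicate 1, 3, 4, 5 or 6 or CRI-G1-RS replicate 1, 2, 3 or 6 (adjusted p 0.0566 to 0.0776). Rpe thus went the way of the 4 listed pentose phosphate genes, while Rpia, ribose-5-phosphate isomerase, and H6pd, the hexose-6-phosphate dehydrogenase of the endoplasmic reticulum, did not pass the test, with log2 changes of 0.01 and 0.03.

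To show whether the genes around an enzyme gene moved with it, the change of each gene is set beside the median log2 change of its 50 closest genes, counting those whose mean signal reached 100 (order of genes from GRCr8). Taldo1, on chromosome 1, lies among genes with a median of -0.44, which leaves its own -0.84 at 0.40 below them. Idh1, on chromosome 9, lies in a stretch with a median of -0.33, and Nnt, on chromosome 2, in one of -0.20, against their own -1.13 and -0.46. Pgls, Tkt and Pgd lie among genes with medians of -0.05, -0.07 and 0.17. The lower level of Fbp2 and Suclg2 stands in stretches with medians of 0.05 for both, and the higher level of Pfkp, Gpi and Idh3a in stretches of 0.00, 0.03 and -0.02. Pgam1, by contrast, changed by 0.39 in a stretch with a median of 0.40. Pc, measured close to the floor, was higher, at 0.40, among genes with a median of -0.37. Aldoa, which did not pass the test, lay among genes with a median of -0.38.

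**Figure D5:**
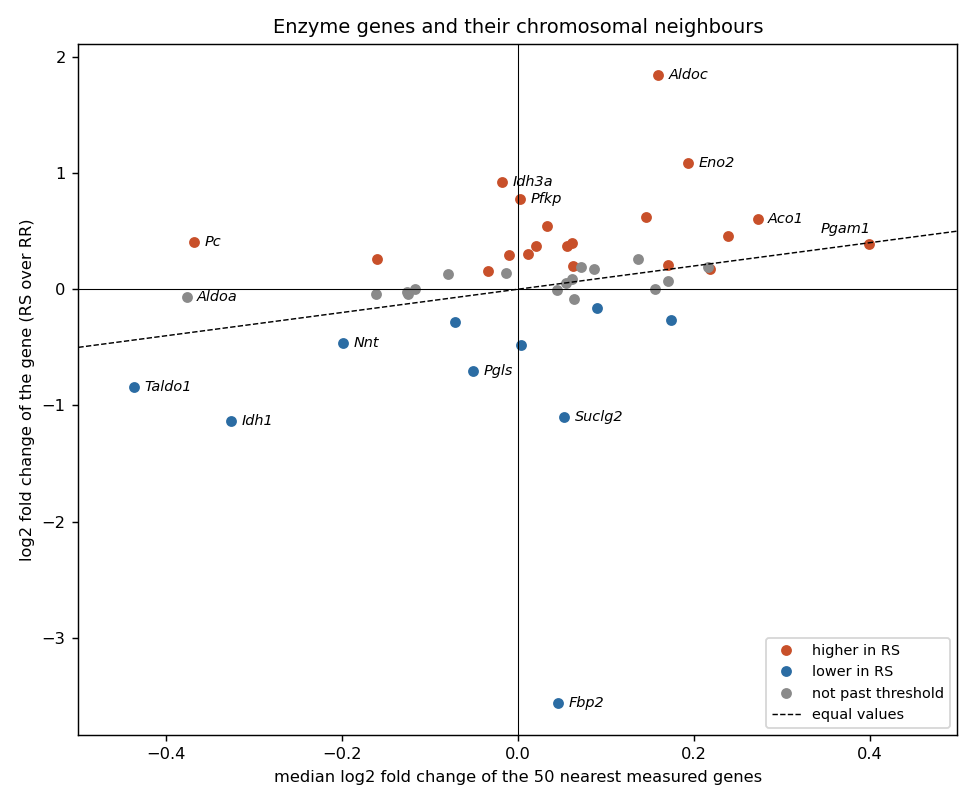
Log2 fold change of each of the 47 enzyme genes (y axis, CRI-G1-RS over CRI-G1-RR) against the median log2 change of the 50 nearest measured genes (x axis), coloured by call, with the dashed line where both are equal. Pgam1 lies on the line at 0.39 and 0.40, Taldo1, Idh1 and Nnt lie below it on the left, and Fbp2, Suclg2, Aldoc, Eno2 and Idh3a lie far from it.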

How the data were processed

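The values deposited by the authors are intensity signals on a linear scale, 1 per probe set and array of an Affymetrix rat genome design; their 2% trimmed mean is 250.1 on each array. The submitters' processing notes name GCOS 1.4, whereas the study's methods describe RMA on a log2 scale, which these values do not follow. Each line has 6 arrays, from 6 passages, so p-values measure the spread between cultures of single clones; intensities carry no read depth, and the number of arrays limits the precision. The signals were quantile normalized, taken as log2(signal + 16) and fitted with limma 3.58.1 in R 4.3.3 on cell type alone, with Benjamini-Hochberg adjustment over 31099 probe sets, and the script was tested on simulated data. Gene names come from the platform annotation, in which 20832 probe sets carry 1 symbol, 436 several and 9831 none. The probe set of highest mean signal stood for a gene. Pairs were compared by exact permutation tests (SciPy 1.17.1). The labels say that passages were collected in pairs but not that the replicate number marks a pair, and same-numbered arrays did not deviate together (correlations -0.06 to 0.08), so no block was used. Values are given for up to 3 genes of largest change in each direction in each of 9 role lists, for the brightest gene there that missed the threshold, and for Gapdh and Hk1; Gpi, Pfkl, Tpi1, Mdh2, Pgd, Pck1, Rpia and H6pd were added after their values were seen. The genes and lists were chosen with earlier results of these data known. Promoter sequences are those of RefSeq for GRCr8, and 42 of the 47 genes had one. Alternatives varied the scaling, the pseudocount (1 and 64), a filter on low signals, the probe sets used, the variance model, array weights, the replicate block and the arrays included.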

Additional observations from a re-analysis of the deposited data

Results flagged for a closer look

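Of 94 groups of 6 arrays tested (47 genes in 2 lines), 6 held an array far from the other 5 by Dixon's test at the 95% level, where chance flags about 1 in 20 groups. CRI-G1-RS replicate 2, the array with the high 3′ to 5′ ratios, was the far one in 4 of them, always as the highest. Its signal was 976 for Pfkm, against 793 on the next array, 1394 for Dlst, against 1160, 3785 for Mdh2, against 3388, and 2972 for Idh2, against 2599. The part of RNA quality in these values was not tested. The other 2 were Dlst on CRI-G1-RR replicate 3, the lowest of its line at 969, and Pgam2 on CRI-G1-RR replicate 1, at 4.68, which is near the floor of the array. Without CRI-G1-RS replicate 2 the calls were 21 genes higher and 10 lower.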

How the results depend on the processing

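Over the alternatives run, the number of enzyme genes called higher in CRI-G1-RS ran from 15 to 22 and the number called lower from 7 to 12, beside 20 and 10 as reported. Leaving out 1 array at a time gave 18 to 21 genes higher, 7 to 10 lower, 9 to 12 pairs, and 10 to 12 higher and 2 to 4 lower among the other pathway genes. With the replicate number as a block, 18 genes were higher and 9 lower, and 27 of the 30 calls were shared, those of Eno1, Mdh2 and Suclg1 being lost; 2 of 6 CRI-G1-RR arrays correlated best with their own number. The pairs past the threshold went from 11 to 0 with the replicate block, where the smallest exact p is 0.0312. They went to 9 with only CRI-G1-RR replicates 1 to 3 and to 0 with only replicates 4 to 6. In both subsets the smallest exact p is 0.0238, and the lowest adjusted p with replicates 4 to 6 was 0.0635 (exact test). With a smallest p this high, a pair passes only if many pairs reach it, so a count of 0 does not say that the differences went away. With only CRI-G1-RR replicates 1 to 3, 1 other pathway gene was lower. That subset also lost the calls of Tpi1, Pfkfb3, Eno1, Eno3, Mdh2 and Idh2, and replicates 4 to 6 alone those of Pfkfb3, Eno1, Eno3, Suclg1, Mdh2, Idh2 and Pgd. Some directions turned, the cause of which was not tested. With the probe set of smallest p, Hk1 was at -0.31, Mdh1 at -0.91, Me1 at 0.083 and Pck2 at -0.31, and the pairs Hk1 minus Hk2 at -0.40, Mdh1 minus Mdh2 at -1.06, Pck1 minus Pck2 at 0.27 and Pfkm minus Pfkp at 0.057. Without cross-hybridising probe sets Mdh1 was at -0.91 and its pair at -1.06. A pseudocount of 1 put Pgam1 minus Pgam2 at -0.351. Gapdh was at -0.025 with the deposited scaling and at -0.046 with median centring. With only CRI-G1-RR replicates 1 to 3, Cs was at 0.00636, Me1 at 0.084 and Hk1 minus Hk2 at -0.065. Leaving out 1 array at a time gave -0.0169 to 0.00974 for Cs, above 0 without CRI-G1-RR replicates 1, 2, 5 or 6 or CRI-G1-RS replicates 4 or 6, -0.079 to 0.00260 for Me1, above 0 without CRI-G1-RR replicate 6, and -0.023 to 0.129 for Pck2, below 0 without CRI-G1-RS replicate 2 or 4. None of the turned values was past the threshold except those of Mdh1, its pair and Pck2 under another probe set. No scaling moved the median of all probe sets by over 0.1. Genes near the floor, such as Aldoc, Fbp1, Pgam2 and Eno3, are limited by signal over background.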
